A study of Homo sapiens with 4 samples.

Results

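The genes described here encode the cytosolic ribosomal proteins, read through 39 ChIP-seq peaks that the annotation names after 37 of them. Members were all peaks whose gene type is protein_coding and whose gene name is an RPL or RPS symbol, with its A, X, Y or L forms, or RPLP0, RPLP1, RPLP2 or RPSA. They make up 39 of 8871 listed peaks. Large subunit genes held 23 of the peaks (23 genes) and small subunit genes 16 (14 genes). All libraries came from DB, a cell line derived from a human diffuse large B-cell lymphoma (DLBCL). One arm, labelled ZHX2_Mut4 and written Mut4 below, was compared with an arm labelled ZHX2, each with 1 ChIP library made with an antibody against ZHX2 and 1 input library. ZHX2 is a zinc-finger and homeobox transcription factor. The labels describe neither the residues changed in Mut4 nor how the proteins were expressed, and they do not say whether DB cells kept their own ZHX2, which the antibody could bind in both arms. With 1 ChIP library per arm there was no replicate error, and no difference between the arms could be tested.

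Ribosomal proteins assemble with ribosomal RNA into the small subunit, which decodes mRNA, and the large subunit, which forms peptide bonds. Their genes are among the most actively transcribed of growing cells, including lymphoma cells, and they start transcription inside a run of pyrimidines that becomes the 5′ terminal oligopyrimidine (5′TOP) tract, through which mTORC1 and LARP1 control translation. ZHX proteins were first described as partners of NF-YA, a subunit of the factor that binds CCAAT boxes, so CCAAT was among the motifs searched for.

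The promoters of 6 members show the sequence around their starts. They are those of the promoter-class members with the highest and the lowest Mut4 signal relative to ZHX2 (RPL35A and RPL39), the strongest mean signal for which a sequence was in the table (RPL13A), and 3 further members with 4 kinds of searched motif each (RPL18, RPL24 and RPL28). RPL3 also holds 4 kinds and is not printed, since ties were taken in alphabetical order. Sequences are from RefSeq on GRCh38.p14, from 250 bases before the start through the first 30 transcribed bases, sense strand, 5′ to 3′, and capitals mark each match to a searched motif. The upstream edge of the RPL28 peak lay at -117 bp from its start, so the ATTGG and CCGGAA of RPL28 fall outside the peak.
RPL35A: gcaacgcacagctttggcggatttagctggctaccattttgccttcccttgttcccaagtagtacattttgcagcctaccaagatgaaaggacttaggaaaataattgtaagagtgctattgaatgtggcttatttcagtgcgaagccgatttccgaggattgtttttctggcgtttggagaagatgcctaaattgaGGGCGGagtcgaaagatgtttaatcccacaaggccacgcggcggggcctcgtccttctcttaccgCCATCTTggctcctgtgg
RPL39: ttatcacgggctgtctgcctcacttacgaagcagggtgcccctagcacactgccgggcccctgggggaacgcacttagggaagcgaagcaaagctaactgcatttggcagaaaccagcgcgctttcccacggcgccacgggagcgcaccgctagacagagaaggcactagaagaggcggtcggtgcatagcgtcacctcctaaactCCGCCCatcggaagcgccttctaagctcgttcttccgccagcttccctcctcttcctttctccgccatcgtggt
RPL13A: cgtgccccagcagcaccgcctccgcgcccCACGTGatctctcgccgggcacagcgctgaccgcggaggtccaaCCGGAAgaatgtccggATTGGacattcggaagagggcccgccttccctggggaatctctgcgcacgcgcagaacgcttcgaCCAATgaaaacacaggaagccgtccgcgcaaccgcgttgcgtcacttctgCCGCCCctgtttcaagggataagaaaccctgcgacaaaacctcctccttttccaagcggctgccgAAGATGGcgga
RPL18: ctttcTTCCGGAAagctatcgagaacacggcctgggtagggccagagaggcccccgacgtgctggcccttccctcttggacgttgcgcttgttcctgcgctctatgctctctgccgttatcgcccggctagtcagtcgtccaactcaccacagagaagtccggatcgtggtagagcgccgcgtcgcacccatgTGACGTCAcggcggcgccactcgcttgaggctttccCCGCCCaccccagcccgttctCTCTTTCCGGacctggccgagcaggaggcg
RPL24: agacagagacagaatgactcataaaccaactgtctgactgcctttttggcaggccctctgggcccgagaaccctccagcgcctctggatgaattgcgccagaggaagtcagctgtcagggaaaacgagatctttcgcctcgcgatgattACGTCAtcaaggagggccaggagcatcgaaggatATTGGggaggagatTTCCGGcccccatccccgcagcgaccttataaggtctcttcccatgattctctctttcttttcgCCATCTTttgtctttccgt
RPL28: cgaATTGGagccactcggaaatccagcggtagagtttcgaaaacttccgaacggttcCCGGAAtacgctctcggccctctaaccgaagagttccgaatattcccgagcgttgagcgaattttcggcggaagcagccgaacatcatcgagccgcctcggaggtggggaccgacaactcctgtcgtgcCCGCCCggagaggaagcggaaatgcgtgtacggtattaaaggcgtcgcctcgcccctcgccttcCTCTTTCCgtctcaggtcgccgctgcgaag
The RPL35A window is chr3:197949940-197950219, plus strand, and the RPL39 window is chrX:119791601-119791880, minus strand. The RPL13A window is chr19:49487358-49487637, plus strand, and the RPL28 window is chr19:55385682-55385961, plus strand. The RPL18 window is chr19:48619149-48619428, minus strand, and the RPL24 window is chr3:101686689-101686968, minus strand. Each of the 6 starts lay in a pyrimidine run, of 10 bases in RPL35A, 22 in RPL39, 14 in RPL13A, 12 in RPL18, 16 in RPL24 and 13 in RPL28. The capitals that cross or follow the start differed: the YY1 letters AAGATGG on the sense strand in RPL13A and on the other strand in RPL35A and RPL24, and CTCTTTCC at the start itself in RPL18 and RPL28.

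Whole reads per library were recovered from the deposited values of every listed peak. They summed to 271694 in Mut4 and 541900 in ZHX2, and the median listed peak held 22 reads in Mut4 and 45 in ZHX2. Signal is given as CPM, the deposited unit of reads divided by a scaled library size that rests on reads in listed peaks, in which 1 read is worth 3.81 CPM in Mut4 and 1.78 CPM in ZHX2. A ratio is Mut4 over ZHX2 on that scale, with an exact 95% interval (Clopper-Pearson) that covers counting error only. Since the authors' scaling set the ratio of a typical peak near 1, "higher" and "lower" below are relative to the listed peaks as a whole. Peaks named after B-lymphoma marker genes were present for 6 of 10 markers, against 2 of 6 T cell and 0 of 4 myeloid markers, which describes binding and not expression.

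Peaks were found at the genes of both subunits. Of 87 ribosomal protein genes looked for, 37 (42.5%) had a peak named after them: 23 of 53 large subunit genes (43.4%) and 14 of 34 small subunit genes (41.2%). Naming missed some, because a peak takes the name of the nearest start. A RefSeq start was in the table for 70 of the 87 genes, and 34 of these starts (48.6%) lay inside a listed peak, with 24 of 43 in the large subunit (55.8%) and 10 of 27 in the small subunit (37.0%). Over all protein-coding genes the share was 28.7%, and over mitochondrial ribosomal protein genes, which serve the separate mitochondrial ribosome, it was 58.0%. The share at cytosolic genes thus lay between that of all coding genes and that of the mitochondrial set.

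Starts of 9 further genes lay only inside peaks named after a neighbour, among them RPLP0 and RPLP2, whose proteins form the stalk that recruits translation factors. With these, 46 of 87 genes had a peak by name or at the start, and 41 had neither (24 large, 17 small). The 41 include RPL11, whose protein joins RPL5 and 5S RNA to bind MDM2, and RPS19 and RPS24, which are mutated in Diamond-Blackfan anaemia. They also include RPSA, RPS3, RPS4X and RPL32.

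Most members lay at gene starts. The promoter class held 30 of 39 member peaks (76.9%), against 56.6% of all listed peaks, and 34 (87.2%) lay within 1000 bp of a start, against 74.0%. Of the 30 member peaks whose gene had a start in the table, 24 contained it. The centres of those 24 lay at a median of 33 bp downstream of the start and between -344 and 945 bp. Median peak length was 923 bp (573 to 2485), close to the 950 bp of all listed peaks.

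**Figure D1:**
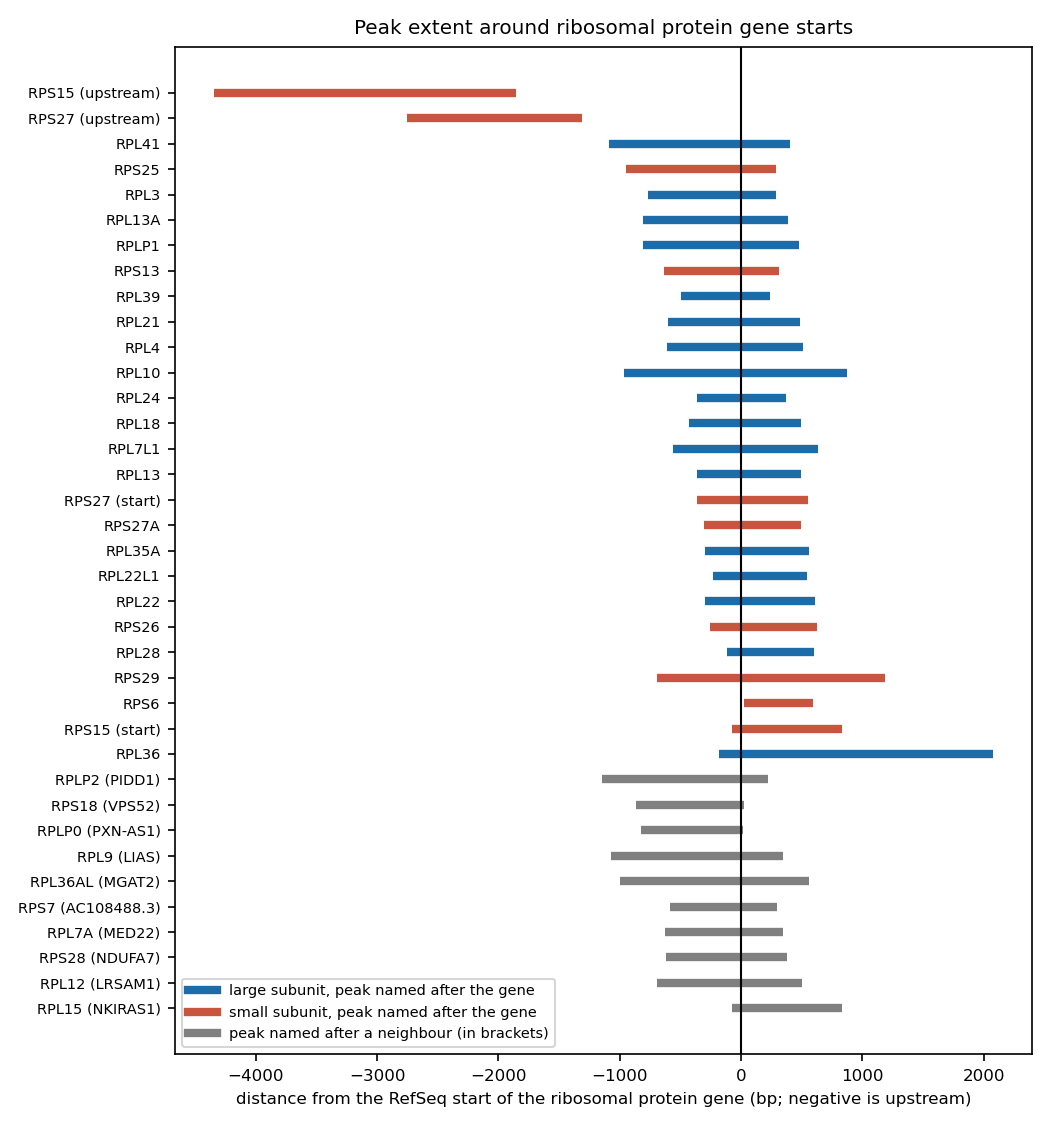
Extent of each peak around the RefSeq start of its ribosomal protein gene (x axis in bp, negative upstream; 1 bar per peak, blue for large and red for small subunit, grey for peaks named after the neighbour in brackets). Most bars cross the start at 0, with upstream peaks of RPS15 and RPS27 apart; the named peaks of RPS16, RPL19 and RPL36AL lie further downstream and are not drawn, nor are 9 peaks whose gene has no start in the table.

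Several of these peaks covered a second gene. In 8 of the 39, the start of another gene lay inside the peak, such as TRAPPC4 beside RPS25, SPHK2 beside RPL18, LRR1 beside RPS29, ZWILCH beside RPL4, CLHC1 beside RPS27A and DRC9 beside RPL35A. The signal of these peaks belongs to the shared region and cannot be assigned to 1 gene. Ribosomal protein genes also have many processed pseudogenes elsewhere in the genome, and the treatment of reads that match several places was not given in the sources used here.

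The member peaks were stronger than the typical listed peak. They held a median of 31 reads in Mut4 and 50 in ZHX2. Per kilobase of peak the median was 113 CPM in Mut4 and 95.9 CPM in ZHX2, against 81.1 and 79.0 CPM over all listed peaks. Of the 39, 26 (66.7%) were at or above the median mean signal. Protein-coding promoter peaks held medians of 26 reads in Mut4 and 51.5 in ZHX2, or 89.3 and 86.3 CPM per kilobase, with 61.1% at or above it. Mitochondrial ribosomal protein peaks held 32 and 58 reads, or 121 and 114 CPM per kilobase, with 68.3% at or above it. The strength was thus not particular to the members.

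Under the authors' scaling most members were higher in Mut4, and with unscaled reads none was. By sign, 27 (69.2%) were higher in Mut4 and 12 (30.8%) in ZHX2, where the background over all listed peaks was 49.6% and 50.4%, and 49.0% of protein-coding promoter peaks were higher in Mut4. The median log2 ratio was 0.22 (quartiles -0.16 and 0.54), against -0.01 over protein-coding promoter peaks. In raw reads, 0 of 39 held more in Mut4 than in ZHX2, as did 4.06% of all listed peaks. The distance of 0.22 between the median member and the median listed peak is the same under every scaling, since a scaling moves all peaks together.

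**Figure D2:**
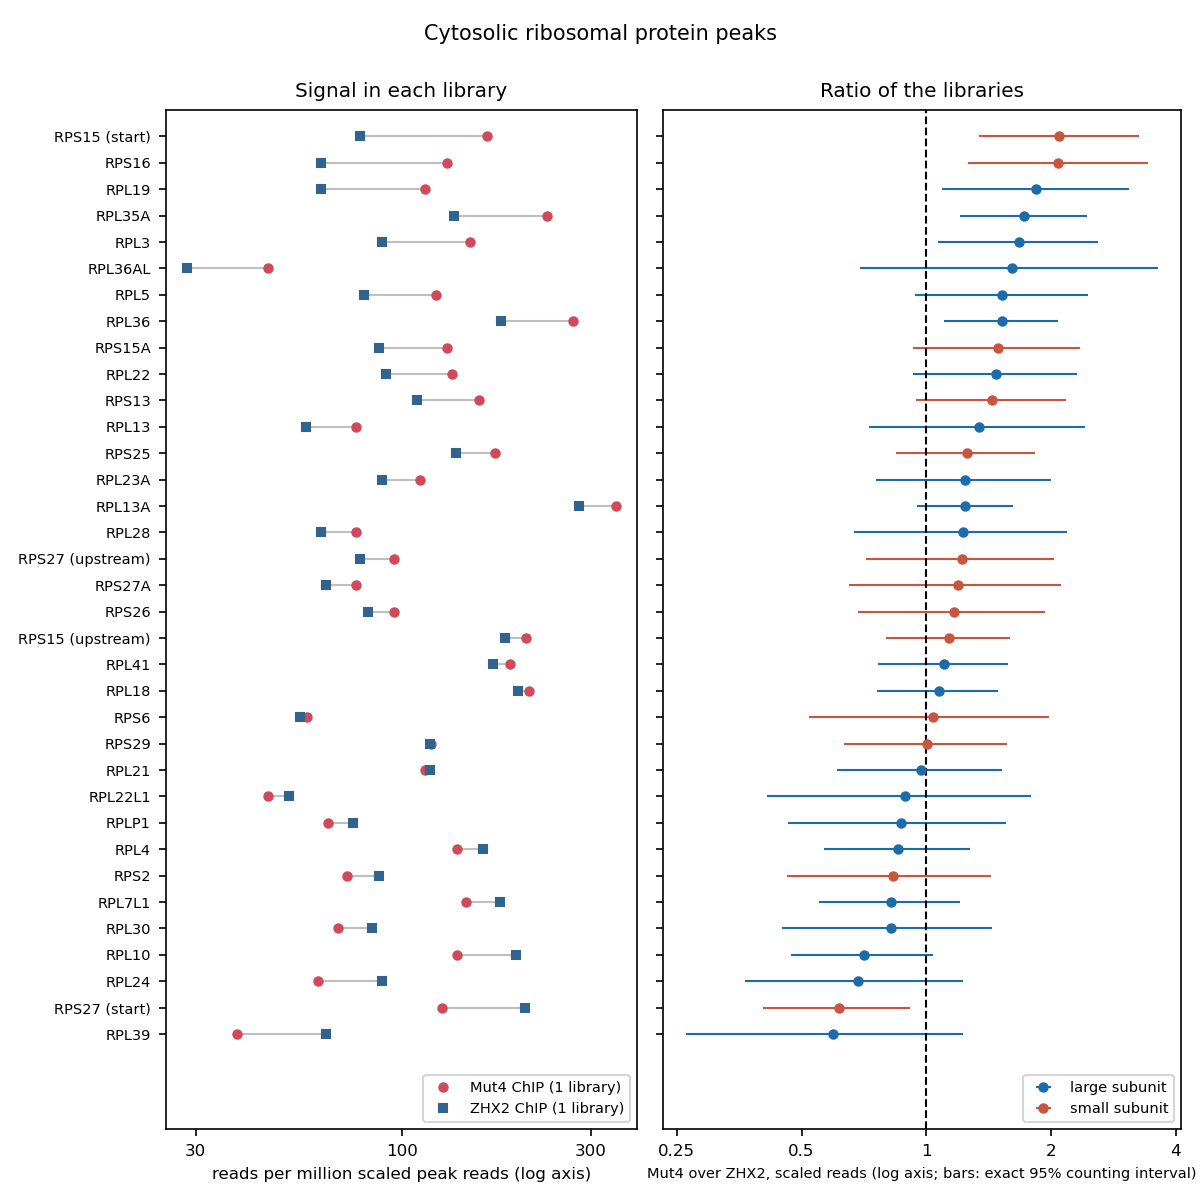
Left, CPM of 35 of the 39 peaks in the Mut4 library (red circles) and the ZHX2 library (blue squares) on a log axis; right, their ratio with its exact 95% counting interval, 1 library per arm. RPS15 and RPS16 stand at the top near a ratio of 2.1 under the authors' scaling, RPL39 and the start peak of RPS27 at the bottom near 0.6, and most intervals cross 1.

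Single differences were small. Past 2-fold lay 2 members higher in Mut4, RPS15 and RPS16, and 0 higher in ZHX2, beside 5.33% and 8.50% of all listed peaks. The counting interval left out 1 at 6 members higher in Mut4 (15.4%) and 1 higher in ZHX2 (2.56%), where the background was 11.0% in each direction. A p under 0.05 was given to 4 members (10.3%) in the authors' deposited table, fewer than the 16.4% of all listed peaks. None had an adjusted p under 0.05 there, the lowest being 0.0940 at RPS15, beside 5.95% of all listed peaks. Those p-values compare 2 libraries. Under the authors' scaling more members thus lay above a ratio of 1 than below it, mostly by small amounts, and none held a large single difference. Whether the members moved together was not tested.

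**Figure D3:**
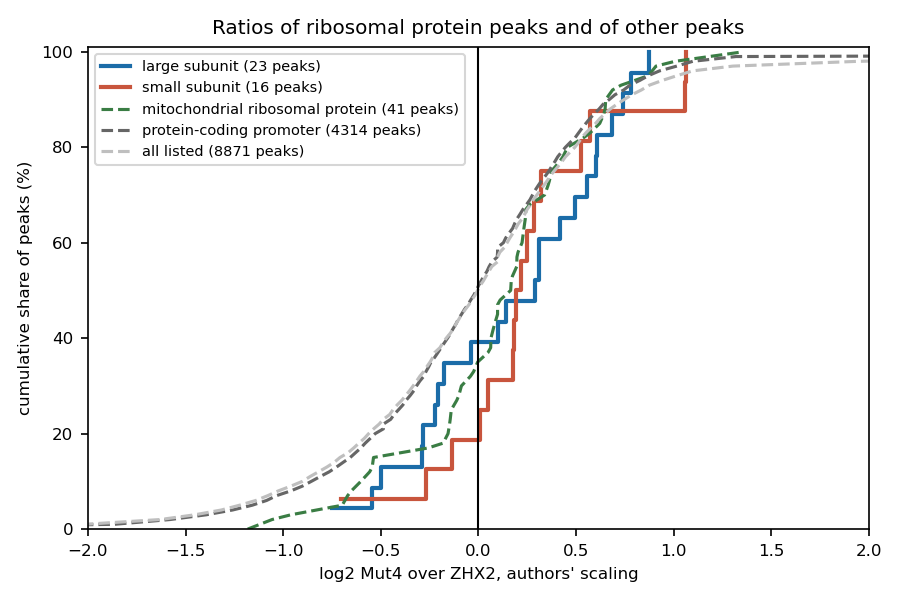
Cumulative share of peaks (y axis, %) by log2 ratio of Mut4 over ZHX2 (x axis) for large subunit, small subunit, mitochondrial ribosomal protein, protein-coding promoter and all listed peaks. Under the authors' scaling the curves of both subunits run to the right of those of all listed and promoter peaks at the lower quartile and the median. The medians are 0.29 and 0.21 against near 0. Higher up the curves cross, and the upper quartile is 0.37 in the small subunit and 0.39 over all listed peaks.

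Large subunit peaks were higher in Mut4 at 14 of 23 (60.9%), with a median log2 ratio of 0.29 (quartiles -0.21 and 0.58), under the authors' scaling and at 0 of 23 unscaled. RPL35A, a Diamond-Blackfan anaemia gene, held 61 reads in Mut4 and 76 in ZHX2, a ratio of 1.72 (1.21 to 2.44), at chromosome 3, 197949890 to 197950753. Its peak covers the printed promoter and was marked as common to both arms. RPL3, which reaches toward the peptidyl transferase centre, held 39 reads in Mut4 and 50 in ZHX2, a ratio of 1.67 (1.07 to 2.59), at a promoter on chromosome 22, 39319338 to 39320394. Both intervals left out 1 under the authors' scaling.

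RPL36 had the longest large subunit peak, 2262 bp on chromosome 19 (5690109 to 5692371), which the annotation classes as a transcription end site although it contains the start. It held 71 reads in Mut4 and 100 in ZHX2, a ratio of 1.52 (1.105 to 2.08). RPL19, which contributes to a bridge between the subunits, was marked by an intergenic peak 8359 bp from the start (chromosome 17, 39208993 to 39209989), with 30 reads in Mut4 and 35 in ZHX2 and a ratio of 1.83 (1.09 to 3.08). An intronic peak 7226 bp away carried the name of RPL36AL, a copy of RPL36A that arose by retroposition, with 12 reads in Mut4 and 16 in ZHX2 and a ratio of 1.61 (0.693 to 3.62). The last of these was the weakest member, and its interval included 1.

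RPL13A, which also acts in an interferon-induced translational silencing complex, had one of the strongest member peaks (chromosome 19, 49486801 to 49487998). It held 91 reads in Mut4 and 157 in ZHX2, or 347 and 279.6 CPM, a ratio of 1.24 (0.948 to 1.62). RPL18 held 55 reads in Mut4 and 110 in ZHX2, a ratio of 1.07 (0.760 to 1.49), and both peaks were marked as common. Neither interval left out 1, although these were among the deepest members.

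At the other end stood RPL39, whose small protein lines the exit tunnel of the large subunit. Its promoter peak (chromosome X, 119791395 to 119792123) held 10 reads in Mut4 and 36 in ZHX2, a ratio of 0.595 (0.263 to 1.22). RPL24, another bridge protein, held 16 reads in Mut4 and 50 in ZHX2, a ratio of 0.685 (0.364 to 1.22). RPL10, a late-joining subunit protein mutated in T-cell leukaemia, held 36 reads in Mut4 and 109 in ZHX2, a ratio of 0.707 (0.471 to 1.04; chromosome X, 154397103 to 154398935). All 3 were lower in Mut4 by the point value under every scaling run, and all 3 intervals included 1 under the authors' scaling.

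The paralog pair with peaks at both genes differed in the sign of the log2 ratio. RPL22, an RNA-binding protein that also binds Epstein-Barr virus small RNAs, held 35 reads in Mut4 and 51 in ZHX2, a ratio of 1.47 (0.928 to 2.30) at an exon-class peak over its start. RPL22L1, its close relative, held 12 reads in Mut4 and 29 in ZHX2, a ratio of 0.886 (0.412 to 1.79). The intervals overlap, so the pair was not told apart at this depth. RPL7L1, a relative of RPL7, held 38 reads in Mut4 and 99 in ZHX2, a ratio of 0.822 (0.550 to 1.21). RPL30 held 18 reads in Mut4 and 47 in ZHX2, a ratio of 0.820 (0.448 to 1.44).

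Further large subunit members were RPL5, RPL13, RPL23A, RPL28, RPL41, RPL21, RPLP1 and RPL4. Their ratios ran from 0.857 at RPL4, whose protein also lines the exit tunnel, to 1.52 at RPL5, the MDM2-binding partner of RPL11. RPL4 held 36 reads in Mut4 and 90 in ZHX2, and RPL5 held 32 in Mut4 and 45 in ZHX2. All 8 intervals included 1.

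Small subunit peaks were higher in Mut4 at 13 of 16 (81.3%), with a median log2 ratio of 0.21 (quartiles 0.04 and 0.37), under the authors' scaling and at 0 of 16 unscaled. The median of the large subunit exceeded that of the small by 0.085. That difference was -0.095 among promoter-class peaks and -0.15 off chromosome 19, so the order of the subunits changed with the peaks counted.

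RPS15, whose tail reaches the decoding site and which is recurrently mutated in chronic lymphocytic leukaemia, had 2 peaks. The one over the start (chromosome 19, 1438324 to 1439228, exon class, common) held 43 reads in Mut4 and 44 in ZHX2, a ratio of 2.09 (1.34 to 3.26), the largest of the members. The one upstream (1434053 to 1436538, a deposited distance of -3063 bp from the start) held 54 reads in Mut4 and 102 in ZHX2, a ratio of 1.13 (0.800 to 1.59). The interval left out 1 at the start and not upstream, but the intervals of the 2 peaks overlap and the difference between them was not tested.

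RPS27, a zinc-finger protein, also had 2 peaks, 944 bp apart on chromosome 1, with point ratios on opposite sides of 1 under the authors' scaling. The peak over the start (153990395 to 153991314) held 33 reads in Mut4 and 115 in ZHX2, a ratio of 0.614 (0.404 to 0.912). The upstream peak (153988009 to 153989451) held 25 reads in Mut4 and 44 in ZHX2, a ratio of 1.22 (0.714 to 2.03). Its interval included 1 and overlaps that of the start peak, and the difference between the 2 peaks was not tested. The start peak was the only member lower in Mut4 whose interval left out 1 under the authors' scaling, and the authors' deposited table gives it a p of 0.0466.

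RPS16, a protein of the subunit head, carried an intergenic peak on chromosome 19 (39429564 to 39430944), 3507 bp from a start by the deposited distance, and its own RefSeq start lay outside the peak. It held 34 reads in Mut4 and 35 in ZHX2, a ratio of 2.08 (1.26 to 3.43). Its interval left out 1 under the authors' scaling.

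RPS6, the classic substrate of S6 kinase, had an exon-class peak that began just after its start, with 15 reads in Mut4 and 31 in ZHX2 and a ratio of 1.04 (0.520 to 1.98). Further small subunit members were RPS15A, RPS13, RPS25, RPS27A, RPS26, RPS29 and RPS2. Their ratios ran from 0.830 at RPS2, with 19 reads in Mut4 and 49 in ZHX2, to 1.49 at RPS15A, with 34 in Mut4 and 49 in ZHX2. All 7 intervals included 1. RPS26, which sits near the mRNA exit, and RPS29 are Diamond-Blackfan anaemia genes and lay at 1.16 and 1.01.

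By the authors' marks, 34 members were unique to ZHX2, 5 were common and 0 were unique to Mut4. Of all 8871 listed peaks, 8476 were unique to ZHX2 and 210 to Mut4, so the mark of unique to ZHX2 was not particular to the members. RPS15 (start), RPL35A, RPL13A and RPL18 were among the common ones, which made up 12.8% of members, against 2.09% of all listed peaks, 3.08% of protein-coding promoter peaks and 4.17% of listed peaks at or above the median signal. A mark of unique did not mean that Mut4 reads were missing, since the weakest Mut4 value among the 39 was the 10 reads of RPL39.

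Signal, class and chromosome moved with the direction, and their part in it was not tested. At or above the median signal 21 of 26 members were higher in Mut4, and below it 6 of 13, where the background was 54.6% and 44.5%. Outside the promoter class all 9 were higher in Mut4 (median 0.60), where the background was 50.4%, while promoter-class members divided 18 to 12 (median 0.16). Each of these shares is under the authors' scaling, and each count higher in Mut4 was 0 with unscaled reads.

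Chromosome 19 held 9 member peaks at 8 genes, among them RPS15, RPS16, RPL36, RPL13A, RPL28 and RPL18. All 9 were higher in Mut4 under the authors' scaling and 0 unscaled, with a median log2 ratio of 0.31, where 60.1% of all listed peaks on that chromosome were. Of the 9, 4 were common, against 5.38% of listed peaks there. Off chromosome 19, 18 of 30 members were higher in Mut4, where the background was 48.4%, with a median of 0.16 and 1 common peak. Both members on chromosome X, RPL10 and RPL39, were lower in Mut4, as were 73.5% of the listed peaks on that chromosome. On chromosomes 19 and X the members thus had the direction of most other peaks there.

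**Figure D4:**
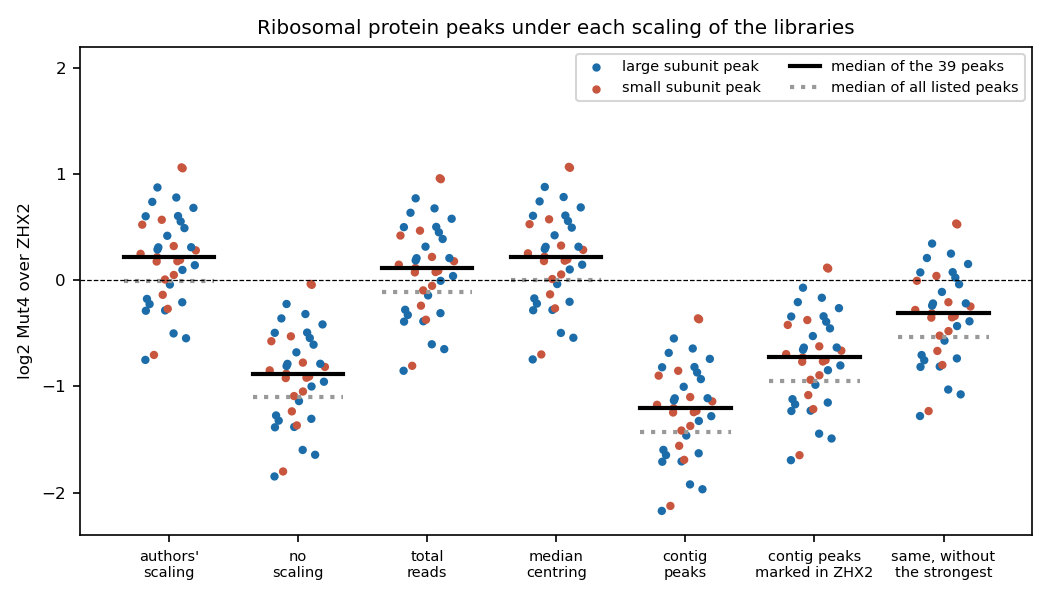
Log2 ratio of Mut4 over ZHX2 (y axis) of each of the 39 peaks (points, blue large and red small subunit) under 7 scalings of the libraries, with the median of the members (solid line) and of all listed peaks (dotted line). The members' median is 0.22 under the authors' scaling and below 0 with no scaling and under the 3 contig scalings, and stays 0.22 above that of all listed peaks throughout.

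Direction depended on what the libraries were scaled to. With unscaled reads, which moves each log2 ratio by -1.10, 39 of 39 members were lower in Mut4 with a median of -0.88. The median of all listed peaks was then -1.10, with 4.06% higher in Mut4. There, 26 member intervals left out 1, and no share over all listed peaks is given beside that count. Scaling to the total of listed-peak reads moved values by -0.10 and left 24 members higher in Mut4 (61.5%) and 15 lower. Of all listed peaks, 42.0% were higher in Mut4 under it. Scaling to the 104 peaks on unplaced contigs gave 0 members higher and a median of -1.20, where all listed peaks had 2.60% and -1.43. The distance between the medians is free of this choice, but the comparison by share is not. Scaled to the 52 contig peaks that carry a ZHX2 mark, 5.13% of members and 6.06% of all listed peaks were higher in Mut4. With the strongest of those contig peaks left out, the shares were 25.6% and 18.1%.

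Peaks named after a neighbour were read at 10 ribosomal protein starts. RPL9 (peak named LIAS, common) held 53 reads in Mut4 and 62 in ZHX2, a ratio of 1.83 (1.24 to 2.68). RPLP2 (PIDD1) held 65 reads in Mut4 and 89 in ZHX2, a ratio of 1.56 (1.12 to 2.18). RPS18 (VPS52) held 29 reads in Mut4 and 103 in ZHX2, a ratio of 0.60 (0.38 to 0.92), and RPL12 (LRSAM1) held 16 in Mut4 and 62 in ZHX2, a ratio of 0.55 (0.30 to 0.97). These were the 4 whose intervals left out 1. RPS28 (NDUFA7) was also common, at 1.30, RPLP0 (PXN-AS1), RPS7 and RPL7A lay at 1.51, 1.57 and 1.07, and RPL36AL (MGAT2) and RPL15 (NKIRAS1) at 0.87 and 0.54. With these the set grew to 49 peaks, 33 of them higher in Mut4 (67.3%), with the same median of 0.22 and 7 common peaks (14.3%), under the authors' scaling.

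The mitochondrial ribosomal proteins were close to the cytosolic ones. Of their 41 peaks at 38 genes, 26 were higher in Mut4 (63.4%) under the authors' scaling, with a median log2 ratio of 0.17, against 69.2% and 0.22 at cytosolic members. They had 2 common peaks (4.88%). Nothing was tested between the sets.

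Other genes of the translation pathway are given by their peak nearest a start and under the authors' scaling, beside 47.2% of protein-coding genes that were higher in Mut4 (median log2 ratio -0.04). Taken the same way, 25 of 37 ribosomal protein genes were higher in Mut4, with a median of 0.22. Of 16 other 5′TOP genes, 11 had a peak, 3 of them higher in Mut4 and 8 lower, with a median of -0.35. Among them the elongation factor EEF1A1 held 34 reads in Mut4 and 138 in ZHX2, a ratio of 0.528 (0.351 to 0.773), and the initiation factor subunit EIF3F held 16 in Mut4 and 87 in ZHX2, a ratio of 0.394 (0.216 to 0.676). RACK1, which sits on the small subunit, held 26 reads in Mut4 and 28 in ZHX2, a ratio of 1.99 (1.12 to 3.52), and EIF4B had a ratio of 1.80 (1.09 to 2.96). The 5′TOP genes other than the RPL and RPS genes thus had a median on the other side of 0 from the ribosomal protein genes, a difference that was not tested.

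Of 40 ribosome biogenesis genes 17 had a peak, 9 higher in Mut4 and 8 lower (median 0.13). The interval left out 1 at 1 gene higher in Mut4 and 2 lower, beside 9.48% and 11.7% of protein-coding genes. The gene higher in Mut4 was WDR43, with a ratio of 1.86 (1.05 to 3.25). The lowest was the assembly factor WDR12, with 7 reads in Mut4 and 45 in ZHX2 and a ratio of 0.333 (0.127 to 0.744). Of 15 regulators 9 had a peak, 3 higher in Mut4 and 6 lower (median -0.15). YY1, a zinc-finger factor that binds many ribosomal protein promoters, held 78 reads in Mut4 and 307 in ZHX2, a ratio of 0.544 (0.419 to 0.700), while RPS6KB2, an S6 kinase, had 1.73 (1.07 to 2.79). Among the ribosomal genes themselves, 6 of 8 Diamond-Blackfan anaemia genes with a peak (median 0.16) and 8 of 13 snoRNA hosts (median 0.19) were higher in Mut4.

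Promoter windows of 300 bases, 250 before the start and 50 from it, were searched on both strands for 8 motifs in 70 ribosomal protein genes. The first-listed start of 33 of them lay inside a listed peak and that of 37 outside. CCAAT was in 33.3% of the windows inside, 32.4% of those outside and 36.4% of all protein-coding windows, so it did not set apart the genes with a peak. AAGATGG, the letters of the YY1 motif, was in 8 of 33 windows inside (24.2%) and 1 of 37 outside (2.70%), against 6.40% of all protein-coding windows and 12.7% of those with a start in a peak. Mitochondrial ribosomal protein windows held it at 33.3%. Those inside were RPL13A, RPL21, RPL22L1, RPL24, RPL35A, RPL7A, RPS15 and RPS28.

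GGGCGG, the GC box, was in 51.5% of windows inside and 54.1% outside, where 76.2% of protein-coding windows with a start in a peak held it. CCGGAA, the ETS and GABP core, went the other way, at 45.5% inside, 62.2% outside and 22.9% of all protein-coding windows. TGACGT was in 24.2% inside, 10.8% outside and 9.67% of all, TATAAA in 15.2%, 5.41% and 9.63%, CACGTG in 9.09%, 2.70% and 8.88%, and CTCTTTCC in 9.09%, 16.2% and 3.15%. CTCTTTCC and CCGGAA overlap in RPL18, where both matches share letters at the start. The feature these promoters shared most was the pyrimidine run: 8 or more C or T in a row within 20 bases of the start occurred in 81.8% of windows inside, 75.7% outside, 16.9% of all protein-coding windows and 14.5% of mitochondrial ribosomal protein windows.

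**Figure D5:**
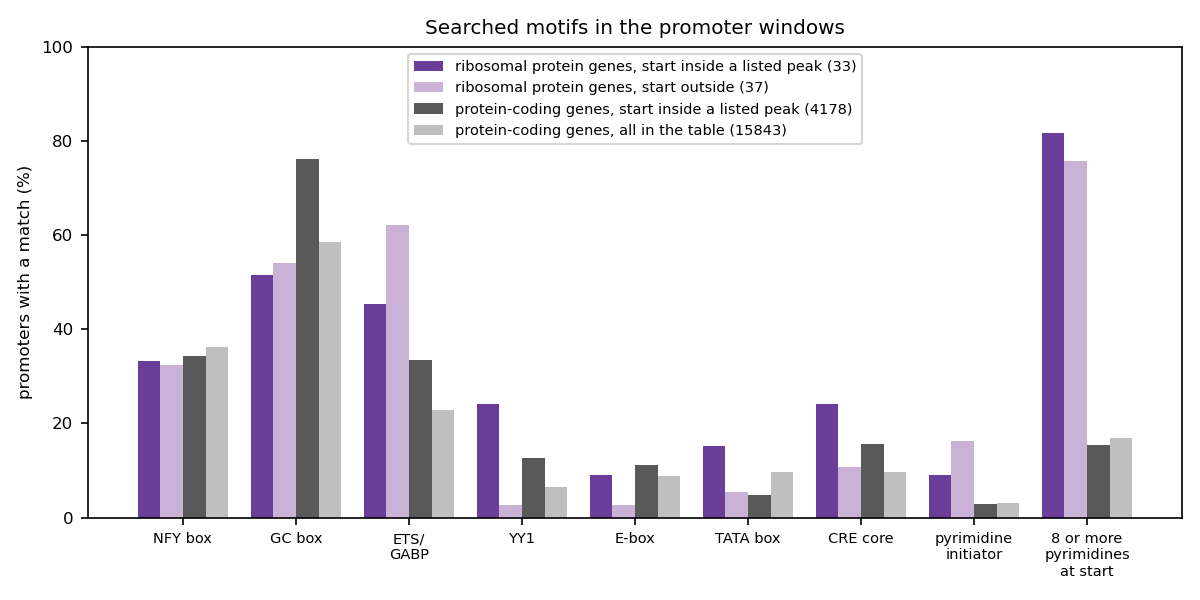
Share of promoter windows (y axis, %) with each searched motif, for ribosomal protein genes with the start inside (33) or outside (37) a listed peak and for protein-coding genes with the start inside a peak (4178) or in all (15843). The pyrimidine run marks ribosomal protein genes on both sides of the peak boundary, at 81.8% and 75.7%, while the YY1 letters stand at 24.2% inside and 2.70% outside.

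Motifs were also set beside the ratios of the peaks over those 33 starts, under the authors' scaling. Some windows reach past the peak, as at RPL28, so a motif counted there need not lie under it. The 11 genes with CCAAT had a median log2 ratio of 0.31 (-0.55 to 0.87), 8 of them higher in Mut4, and the 22 without had 0.05, 12 of them higher in Mut4. The 8 with AAGATGG had a median of 0.21 and the 25 without 0.14. The 8 with TGACGT had 0.40, 7 of them higher in Mut4, and the 25 without had 0.01. GGGCGG (0.29 at the 17 with, -0.02 at the 16 without) also had the higher median with the motif. So did TATAAA (0.38 at only 5 with, 0.12 at the 28 without) and CACGTG (0.31 at only 3 with, 0.12 at the 30 without). CCGGAA went the other way, with 0.10 at the 15 with it and 0.26 at the 18 without, as did CTCTTTCC, with 0.10 at the 3 with it and 0.18 at the 30 without. For each of the 8 motifs the values with it spanned 0, the motifs occur together in the same promoters, as the capitals in RPL13A and RPL24 show, and no difference was tested.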

How the data were processed

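Chromatin from DB cells was immunoprecipitated with an antibody against ZHX2, and libraries were grouped by title, 1 ChIP and 1 input library per arm. The submitters' processing notes name hg38 and deepTools 3.4.3, HOMER, MACS2 2.2.6, Picard 2.22.2-0, BWA 0.7.17, MultiQC 1.8, FastQC 0.11.9 and Trim Galore 0.6.4, without roles. The tool behind the comparison and whether starts count from 0 or 1 were not given in the sources used here. The deposited table gives, per the file headers, a log2 fold change, a log2 CPM, and both a raw and an adjusted p-value for each of 8871 peaks, made by the authors. Its log2 fold runs ZHX2 over Mut4, as all 210 Mut4-only peaks are negative, so it has the opposite sign to the log2 ratios given here. Input libraries were not used here.

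Whole reads were recovered from the deposited fold and CPM (shared prior of 0.25 reads, mean prior of 2 reads, dispersion 0.05). Both values came back within 1e-09 at 8871 of 8871 peaks (100%). The step was tested on simulated data. Ratios are the Mut4 over the ZHX2 read count, divided by the scaled sizes 262216 and 561498. Intervals are Clopper-Pearson. They cover counting error only, as each arm had 1 ChIP library. Reads carry no molecular identifiers, and where several share a molecule the intervals are too narrow even for counting error. Depth outside listed peaks is unknown. The design foresaw log2 folds alone, and intervals were added once reads were found. Members, lists, motifs and alternatives were chosen with earlier results of these data known. Some member genes are not reported by name here but stay in all counts and medians. Reads are given for the 6 highest and 6 lowest ratios, the 6 strongest, those whose interval left out 1, common, non-promoter, 2-peak and paralog members. Those for the upper RPL5, RPS15A and lower RPL4, RPS2 ends of ranges, the neighbour-named peaks and members of other lists were chosen after their values were seen. RefSeq tables on GRCh38.p14 gave starts and promoters, and 70 of 87 genes matched by symbol. Tools were Python 3.11.15, NumPy 2.4.6, pandas 2.3.3, SciPy 1.17.1 and Matplotlib 3.10.9. Alternatives were other scalings, thresholds, peak choices, members and signal filters.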

Additional observations from a re-analysis of the deposited data

How the results depend on the processing

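The sign of the members' ratios rested on the scaling. The share of members higher in ZHX2, 30.8% under the authors' scaling, was 100% with unscaled reads and with scaling to the 104 contig peaks, 94.9% when only the 52 contig peaks that carry a ZHX2 mark set the scale, and 74.4% once the strongest 1 was dropped. The median log2 ratio, 0.22, became -0.88, -1.20, -0.73 and -0.31 in that order. All listed peaks moved with it, to medians of -1.10, -1.43, -0.95 and -0.53. Of them, 4.06%, 2.60%, 6.06% and 18.1% were higher in Mut4. Counts past 2-fold, 2 as reported, were 14, 27, 11 and 4, and 0 with scaling to total reads or at 4-fold. Intervals that left out 1, 7 as reported, were 26, 35, 20 and 9, and 4 at 99%. No share over all listed peaks is given beside these counts, so they are not a result about the members. All 27 members higher in Mut4 turned without scaling and on all contig peaks. Among the 6 of these whose interval left out 1, without scaling and on all contig peaks, RPS15 (start) gave log2 ratios of -0.033 and -0.36, RPS16 -0.042 and -0.37, RPL19 -0.22 and -0.55, RPL35A -0.32 and -0.64, RPL3 -0.36 and -0.68, and RPL36 -0.49 and -0.82. On contig peaks marked in ZHX2, RPL19 gave -0.069, RPL35A -0.16, RPL3 -0.21 and RPL36 -0.34. The cause was not tested. The last 2 scalings and the neighbour-named peaks were added after seeing the data. Across total-read scaling, median centring, promoter class, 1 peak per gene, stronger peaks, no paralogs and neighbour-named peaks added, the share higher in ZHX2 ran from 19.2% to 40.0%. Members with a peak numbered 37 by name and 46 with neighbour-named peaks. No paired analysis was possible because each arm had 1 ChIP library. Depth limits single members: the median interval spanned a factor of 2.62 from its lower to its upper bound.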

Other observations

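Peaks named after ribosomal protein pseudogenes numbered 27 and carried 24 names. Such pseudogenes share most of their sequence with the coding genes, but the name of a peak marks only the nearest start. Of the 27 peaks, 3 (11.1%) lay within 1000 bp of that start, against 74.0% of all listed peaks. The median distance was 8074 bp, so most of these peaks did not lie at the pseudogene. All 27 were marked as unique to ZHX2, as were 8476 of all 8871 listed peaks, and 16 were intergenic. The promoter class held 1 of them (3.70%), against 56.6% of all listed peaks. Under the authors' scaling 17 were higher in Mut4 (63.0%) and 10 lower, where 49.6% of all listed peaks were higher in Mut4, and the median log2 ratio was 0.25, against -0.0046. The interval left out 1 at 4 higher in Mut4 (14.8%) and 2 lower (7.41%), near the 11.0% of all listed peaks in each direction. The peak named RPS23P5, at a deposited distance of 9475 bp, held 25 reads in Mut4 and 18 in ZHX2, a ratio of 2.97 (1.56 to 5.79). The peak named RPL7P49, at 6637 bp, held 34 in Mut4 and 28 in ZHX2, a ratio of 2.60 (1.53 to 4.45). These 2 peaks held more reads in Mut4 even unscaled, which none of the 39 coding-gene peaks did. The peak named RPL31P7, at -2554 bp, held 52 reads in Mut4 and 66 in ZHX2, a ratio of 1.69 (1.15 to 2.46). The peak named RPL17P43, at 10687 bp, held 22 reads in Mut4 and 89 in ZHX2, a ratio of 0.529 (0.316 to 0.852). These peaks were picked after their values were seen, as the ones with the most reads of the 6 whose intervals left out 1.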
